A study of Mus musculus with 6 samples.

Results

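The presynaptic vesicle release machinery was followed in the medial prefrontal cortex of mice on 2 diets, through 43 genes whose proteins cluster, dock, prime and fuse synaptic vesicles or recycle their SNARE complexes. Its members were all probe sets (groups of short probes that read a transcript) annotated to exactly 1 gene symbol, where that symbol was one of the 43. This gave 106 of the 45037 probe sets on the array, with array controls left out. The match by symbol used no measured value, but the 43 genes were chosen with earlier results of these data known. Of these, 94 were bright enough to be tested, at least 1 for every gene, and the 12 others, from 9 genes, stayed at or below 4.28 log2 units in every mouse. The ZnR diet, a zinc diet by its label whose make-up the sources used here do not state, was fed to mice 3, 7 and 11. Mice 1, 5 and 9 had a control diet. All were 129S1/SvImJ males, an inbred strain, of 8 to 10 weeks, and all went through fear extinction training, the repeated showing of a feared cue with no harm following. The area was dissected from both hemispheres 2 h later and read on 1 Affymetrix Mouse430_2 array per mouse, so every value is of whole tissue, and no untrained mouse is compared here.

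As background, a synaptic vesicle fuses when its SNARE protein synaptobrevin (VAMP) zips up with syntaxin-1 and SNAP-25 of the plasma membrane. Munc13 and RIM proteins at the active zone prepare that complex, complexins hold and assist it, and synaptotagmins trigger it when calcium enters. NSF and its SNAP adaptors then take spent SNARE complexes apart. In cortex most neurons express these genes, and many have paralogs that differ between neuron types.

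The tissue carried neuronal markers throughout: all 10 general neuron markers were measured, with a mean of 11.82 to 11.83 in ZnR mice and 11.83 to 11.91 in control mice. Marker means use 1 probe set a gene, the one with the highest mean over all arrays. Array medians lay between 4.45 and 4.52 log2 units. Of all 25381 probe sets tested, 373 passed the threshold, a limma p under 0.05 after Benjamini-Hochberg adjustment over all of them, and 1 to 109 did so when any mouse was left out. A pair of arrays had a low 18S ribosomal RNA control signal, 8.44 log2 units in ZnR mouse 3 and 9.09 in control mouse 1. The other ZnR mice had 10.9 and 11.5, and the other control mice 11.4 and 12.4. For the main members, the difference inside that pair (called the low-18S pair) is therefore given beside the one among the 4 remaining mice.

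Transcripts of the release machinery were mostly lower in ZnR mice, by small amounts for most members. Past the threshold were probe sets of 4 genes, Rph3a (rabphilin, a Rab3-binding vesicle protein), Stx1a (the plasma membrane SNARE syntaxin-1A), Syt13 (an atypical synaptotagmin) and Rims1 (the active zone organizer RIM1). They held the 6 member probe sets past the threshold, all lower in ZnR mice, by 1.505- to 2.23-fold. That is 6.38% of the 94 tested, against 1.01% of all probe sets called lower and 1.47% called in either direction. Of members called higher, limma gave 0, against 0.461% of all probe sets, and at an unadjusted p under 0.05 it gave 4 higher and 33 lower, 39.4% of the members in all. Of all probe sets, 17.0% had an unadjusted p under 0.05, 7.9% lower and 9.06% higher.

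The count of 6 rested on every mouse. Among ZnR mice, leaving out mouse 3 gave 1, mouse 7 gave 2 and mouse 11 gave 1. Among control mice, leaving out mouse 1 gave 3, mouse 5 gave 0 and mouse 9 gave 2. With the low-18S pair left out the count was 0, and with that pair as a block it was 9. In both limma fits that gave 0, 31 member probe sets (33%) had an unadjusted p under 0.05. The share of all probe sets at that p was 13% without control mouse 5 and 12.9% without the low-18S pair.

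The direction was broader than the calls. Of the 94 tested member probe sets, 78 (83.0%) had a lower mean in ZnR mice, against 46.4% of all probe sets tested. In 41 (43.6%) every ZnR mouse was below every control mouse, against 10.6% of all, and in 4 every ZnR mouse was above, against 13.1% of all. The median log2 difference was -0.17 for the members, which ran from -1.16 to 0.56, and 0.015 for all probe sets tested. Probe sets of a gene read the same transcripts and are not independent. By gene, 32 of 43 had a lower mean in every tested probe set, 6 a higher mean in every one (Syngr3, Rab3b, Syt2, Doc2b, Sv2c and Unc13c), and 5 were mixed. The signs of Syngr3 and Rab3b turned when single mice were left out. The mean over the 94 probe sets was 9.50 to 9.53 log2 units in ZnR mice and 9.70 to 9.73 in control mice, so the diets did not overlap.

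Markers of cell types moved in the same arrays. All 7 measured markers of cortical excitatory neurons (of 8 listed) had lower means in ZnR mice, 5 of them past the threshold, and their mean level was 8.63 to 8.80 in ZnR mice and 9.51 to 9.61 in control mice. The 10 general neuron markers differed by a mean of -0.058 ± 0.026 (SE over mice), with 6 lower and 4 higher on average. Over all 21 tested probe sets of those genes, 16 (76.2%) had lower means, the median difference was -0.13, and in 8 every ZnR mouse was below every control mouse. Of 11 interneuron markers, 8 were higher and 3 lower on average (1 past the threshold, Vip), at 9.47 to 9.58 in ZnR mice and 9.16 to 9.48 in control mice. The higher ones were Gad1, Gad2, Slc32a1, Lhx6, Dlx1, Dlx2, Dlx5 and Dlx6, and Gad1, Gad2, Slc32a1 and Dlx genes are also known from striatal medium spiny neurons. Vip, Pvalb and Sst, which mark interneuron classes, were the lower ones, and Pvalb (-0.70 ± 0.28 SE, adjusted p = 0.255, with overlap) and Sst (-0.13 ± 0.094 SE, adjusted p = 0.53, with overlap) did not pass by limma. All 10 measured markers of striatal medium spiny neurons (of 12 listed), neurons of a region near the dissected cortex, had higher means in ZnR mice, 3 past the threshold, at 11.01 to 11.20 in ZnR mice and 10.33 to 10.71 in control mice. The 7 measured ventricle-lining markers (of 8 listed) were higher on average too, 2 past the threshold, at 5.66 to 5.82 in ZnR mice and 4.10 to 5.09 in control mice. Astrocyte markers were higher on average in 10 of 10 (10.50 to 10.59 in ZnR mice and 10.22 to 10.38 in control mice), oligodendrocyte markers in 8 of 8 (10.64 to 11.39 in ZnR mice and 10.59 to 10.78 in control mice) and those of leptomeninges in 4 of 4 (6.34 to 7.47 in ZnR mice and 5.87 to 6.73 in control mice). Over all tested probe sets of those genes, 25 of 31 were higher for astrocytes, 19 of 21 for oligodendrocytes and 5 of 5 for leptomeninges. Microglia markers were lower on average in 6 of 7 (7.44 to 7.62 in ZnR mice and 7.54 to 7.65 in control mice). The part of these shifts in the results on the release machinery was not tested. In whole tissue, fewer cells of a type and less RNA per cell cannot be told apart.

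**Figure D1:**
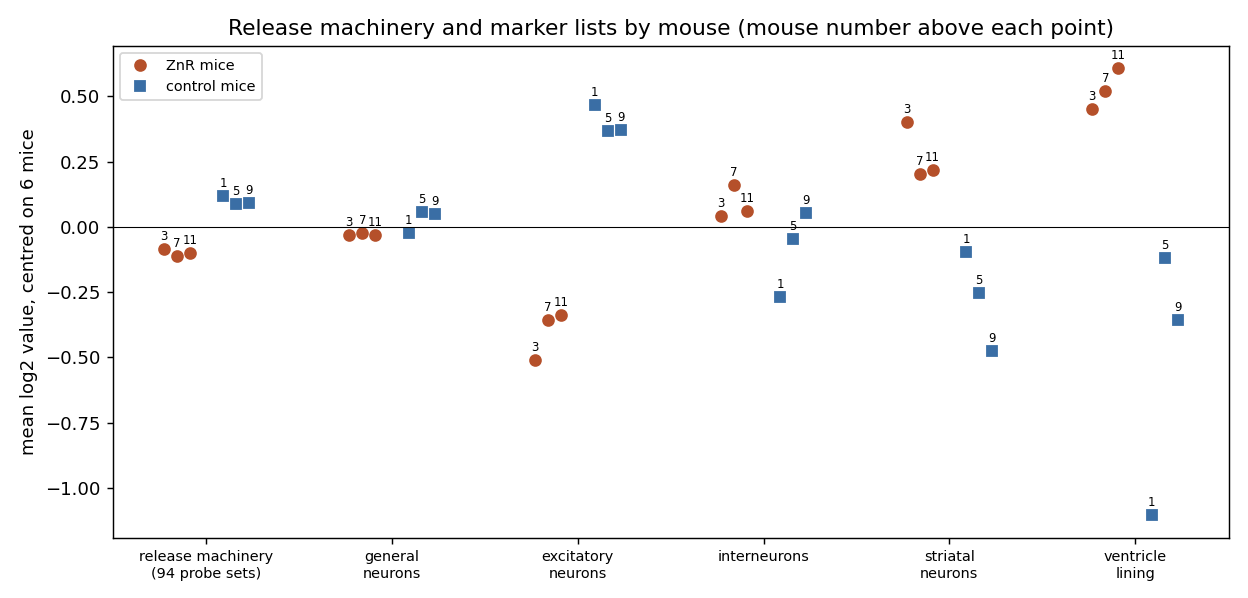
Mean log2 value of the 94 tested member probe sets and of 5 marker lists in each mouse, centred on the 6 mice, with ZnR mice as circles and control mice as squares. The release machinery is lower in all 3 ZnR mice (mean difference -0.20 log2 units), as are excitatory neuron markers (-0.80), while striatal (0.55) and ventricle-lining markers (1.05) are higher.

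Windows of 250 bases before the annotated start (RefSeq, GRCm38.p6, 5′ to 3′ on the strand of the gene) are shown for Stx1a, Rims1 and Rph3a, which had a called probe set, and for Unc13c, whose transcripts were higher on average. Capitals mark the GC box GGGCGG on either strand, a motif common in promoters. For Rph3a the window farthest upstream of the 3 listed is given.
Stx1a, chr5:135023232-135023481, plus strand: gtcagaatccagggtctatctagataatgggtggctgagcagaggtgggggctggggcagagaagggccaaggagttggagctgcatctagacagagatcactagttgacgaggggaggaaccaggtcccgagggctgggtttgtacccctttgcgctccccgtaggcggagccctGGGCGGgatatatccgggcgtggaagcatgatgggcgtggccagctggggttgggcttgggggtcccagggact
Rims1, chr1:22806159-22806408, minus strand: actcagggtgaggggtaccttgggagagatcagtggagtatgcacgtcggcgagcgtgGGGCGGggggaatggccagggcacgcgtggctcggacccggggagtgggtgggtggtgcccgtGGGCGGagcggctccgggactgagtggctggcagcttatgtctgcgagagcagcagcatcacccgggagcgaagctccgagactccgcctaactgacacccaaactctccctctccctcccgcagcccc
Rph3a, chr5:121010093-121010342, minus strand: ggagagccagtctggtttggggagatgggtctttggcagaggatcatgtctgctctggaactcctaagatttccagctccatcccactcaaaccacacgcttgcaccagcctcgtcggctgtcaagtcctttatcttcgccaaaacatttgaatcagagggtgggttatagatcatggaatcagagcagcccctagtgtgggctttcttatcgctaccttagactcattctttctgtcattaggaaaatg
Unc13c, chr9:73969038-73969287, minus strand: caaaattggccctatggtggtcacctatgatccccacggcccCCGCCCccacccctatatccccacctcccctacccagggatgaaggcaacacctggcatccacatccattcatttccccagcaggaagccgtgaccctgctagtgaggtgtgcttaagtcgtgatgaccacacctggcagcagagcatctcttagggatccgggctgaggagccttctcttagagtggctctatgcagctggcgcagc

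RefSeq windows were matched for 33 of the 43 genes, 43 windows in all. The GC box was found in 26 of them (60.5%) and in 32.7% of all 32851 windows. Counted to its first base, it lay 74 bases before the Stx1a start, 192 and 129 before the Rims1 start and 208 before the Unc13c start, while the Rph3a window shown held none and 1 of the 3 Rph3a windows listed held one. The cyclic AMP response element TGACGTCA was found in Syn1 (2.33% of member windows, 1.55% of all). The left half-site of the repressor element RE1, TTCAGCACC, was found in Ppfia3 and Syn1 (4.65% of member windows, 0.301% of all), and the Egr motif GCGTGGGCG in Unc13a (2.33% of member windows, 0.536% of all). The palindromic NRF1 motif was found in Bsn and Stxbp5 (4.65% of member windows, 0.782% of all), and the NeuroD E-box CAGATG in Pclo, Rims3 and Syn2 (6.98% of member windows, 14.4% of all). Both strands were searched, and the Egr motif can share letters with a GC box. A match describes letters in a window and does not show that a factor binds there.

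Among the 8 tested probe sets of SNARE proteins, 2 fell (25%, against 1.01% of all probe sets), both of Stx1a. Probe set 1437390_x_at measured 10.16, 10.08 and 10.17 in ZnR mice, against 11.27, 11.13 and 10.97 in control mice, all in log2 units and in the order of mice 3, 7 and 11 and of mice 1, 5 and 9, as in what follows. All ZnR mice were below all control mice. The difference was -0.99 ± 0.10 (SE), 1.99-fold lower in ZnR mice (limma adjusted p = 0.0137). It came to -1.11 in the low-18S pair, with -0.93 among the rest. The ending x_at marks probes that may also match other transcripts. Probe set 1448366_at measured 9.56, 9.13 and 9.35 in ZnR mice, against 10.26, 10.17 and 10.18 in control mice, a difference of -0.86 ± 0.12 (SE; adjusted p = 0.026), again with no overlap. The first did not pass when ZnR mouse 3 (0.0732), ZnR mouse 11 (0.0673) or control mouse 5 (0.0815) was left out. The second did not pass with any mouse left out (limma adjusted p 0.054 to 0.101, differences -0.97 to -0.75).

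The partners of syntaxin did not pass the threshold. Snap25, the other plasma membrane SNARE, measured 12.45, 12.45 and 12.41 in ZnR mice, against 12.55, 12.60 and 12.66 in control mice. These mice did not overlap, and the difference was -0.16 ± 0.078 SE, adjusted p = 0.35 (95% interval -0.34 to 0.021). Vamp2, the main vesicle SNARE of forebrain, measured 12.72, 12.78 and 12.64 in ZnR mice, against 12.82, 12.75 and 12.80 in control mice, with overlap (-0.075 ± 0.082 SE, adjusted p = 0.698, 95% interval -0.27 to 0.12). Its other probe set measured 10.44, 10.37 and 10.75 in ZnR mice, against 10.79, 10.76 and 10.88 in control mice, without overlap (-0.29 ± 0.12 SE, adjusted p = 0.263). Vamp1, a second vesicle SNARE, measured 8.94, 9.21 and 9.25 in ZnR mice, against 8.23, 9.14 and 9.42 in control mice. Control mouse 1 was the low one there, and the difference of 0.20 turned to -0.15 with that mouse left out. The other tested Vamp1 probe set had a difference on the opposite side of 0, with overlap (-0.13 ± 0.29 SE, limma adjusted p = 0.869).

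**Figure D2:**
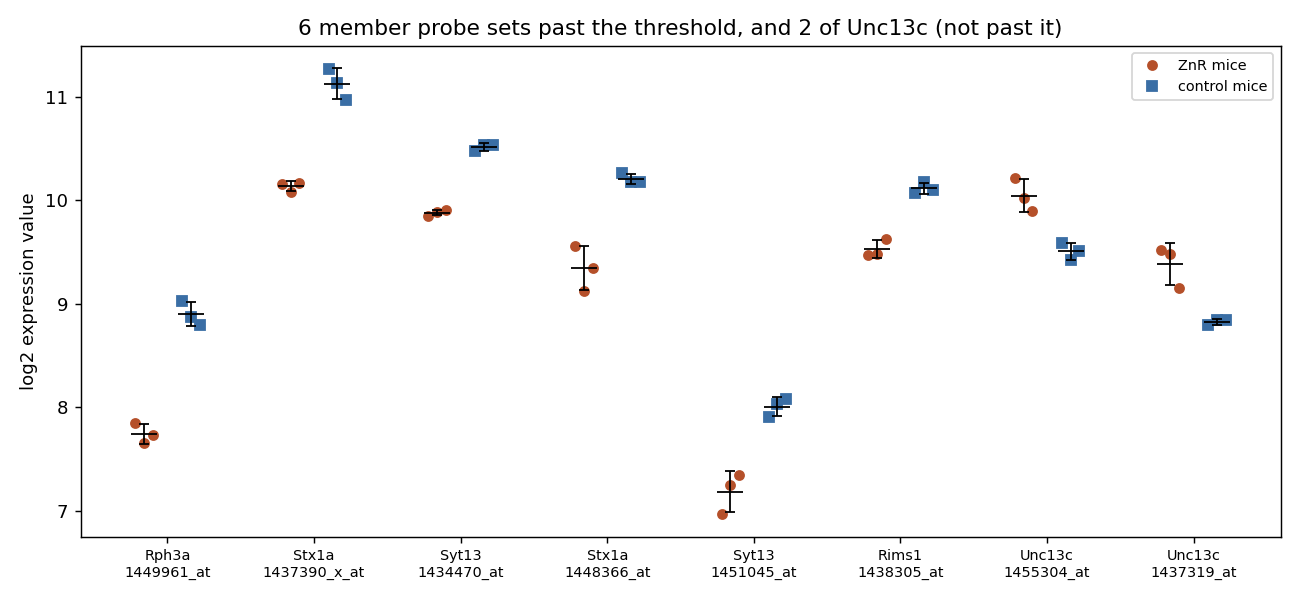
Log2 value in each mouse of the 6 member probe sets past the threshold and of 2 Unc13c probe sets that did not pass, with ZnR mice as circles left of control mice as squares. Lines and bars are the mean and SD of 3 mice, and ZnR mice lie below every control mouse in the first 6 and above every control mouse in both of Unc13c.

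Rph3a had the largest difference of the 94 tested member probe sets. Rabphilin binds Rab3 on the vesicle and carries calcium-binding C2 domains. Probe set 1449961_at measured 7.84, 7.65 and 7.73 in ZnR mice, against 9.03, 8.87 and 8.80 in control mice. Every ZnR mouse was below every control mouse, with differences of -1.18 in the low-18S pair and -1.15 among the rest. The difference was -1.16 ± 0.098 (SE), 2.23-fold lower in ZnR mice (limma adjusted p = 0.00728), and it passed with any mouse left out except control mouse 5 (adjusted p = 0.0686). The other Rph3a probe set, 1434635_at, measured 10.63, 10.32 and 10.67 in ZnR mice, against 11.27, 11.06 and 10.84 in control mice. It did not overlap between diets either, but its difference was -0.52 ± 0.14 (SE) and did not pass (adjusted p = 0.122), so the size of the Rph3a difference depends on the probe set.

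The Rab3 GTPases, which rabphilin and RIM bind, did not pass in any of their 7 tested probe sets. Rab3a, the main one of synapses, measured 11.63, 11.33 and 11.53 in ZnR mice, against 11.83, 11.62 and 11.56 in control mice, with overlap (-0.17 ± 0.12 SE, adjusted p = 0.506). Its other probe set measured 8.47, 8.56 and 8.66 in ZnR mice, against 8.86, 8.61 and 8.90 in control mice (-0.22 ± 0.11 SE, adjusted p = 0.346). Rab3b measured 8.48, 8.69 and 8.35 in ZnR mice and 8.58, 8.49 and 8.42 in control mice. Its difference was 0.0088 ± 0.11 (SE, 95% interval -0.25 to 0.26). The 4 tested Rab3c probe sets had differences of -0.056 to 0.014 (adjusted p 0.852 to 0.98), and the one with the highest mean measured 12.09, 12.22 and 12.08 in ZnR mice and 12.12, 12.10 and 12.13 in control mice.

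Of the calcium sensors, Syt13 fell in both of its probe sets. Syt13 is a synaptotagmin that lacks the residues with which others bind calcium. Probe set 1434470_at measured 9.85, 9.89 and 9.90 in ZnR mice, against 10.47, 10.54 and 10.53 in control mice. The SD between mice was 0.028 in ZnR mice and 0.035 in control mice, against a difference of -0.63 ± 0.077 (SE; 1.55-fold lower in ZnR mice, limma adjusted p = 0.0212). Probe set 1451045_at measured 6.96, 7.25 and 7.34 in ZnR mice, against 7.90, 8.04 and 8.08 in control mice, again with no overlap (-0.82 ± 0.12 SE, 1.77-fold lower, adjusted p = 0.0279). The low-18S pair gave -0.62 and -0.94 for these, and the remaining mice gave -0.64 and -0.76. With a mouse left out, the first passed for control mouse 1 (0.0473) and for no other (0.0546 to 0.0983). The second passed for none (limma adjusted p 0.0573 to 0.117, differences -0.90 to -0.71).

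The fast calcium sensor Syt1 had lower means in each of its 4 tested probe sets, from -0.41 to -0.052, and did not pass (adjusted p 0.0715 to 0.869). The one with the highest mean measured 13.01, 12.88 and 12.93 in ZnR mice, against 13.17, 13.11 and 13.01 in control mice. The diets did not overlap there, although ZnR mouse 3 and control mouse 9 were nearly equal (-0.16 ± 0.086 SE, adjusted p = 0.408). Syt2, the fast sensor of many interneurons and hindbrain neurons, measured 5.12, 5.58 and 5.58 in ZnR mice, against 4.38, 4.83 and 5.41 in control mice, with overlap (0.55 ± 0.25 SE, adjusted p = 0.324). Syt7, a high-affinity sensor of slow release, had lower means in 4 of 4 probe sets (-0.47 to -0.052, smallest adjusted p 0.0861). Differences were -0.060 to -0.056 for the 2 probe sets of Syt4, -0.044 for Syt5 and -0.090 to 0.011 for the 5 of Syt11, all with overlapping mice.

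The Doc2 sensors, which serve spontaneous and delayed release, had means on opposite sides of 0, and neither passed. Doc2a measured 6.35, 6.57 and 6.39 in ZnR mice, against 7.26, 6.92 and 6.95 in control mice, with no overlap (-0.61 ± 0.12 SE, adjusted p = 0.0564). Doc2b measured 8.89, 8.82 and 8.34 in ZnR mice, against 8.41, 8.39 and 8.11 in control mice, where ZnR mouse 11 lay among the control mice (0.38 ± 0.16 SE, adjusted p = 0.293). The other Doc2b probe set had a difference of 0.42 ± 0.23 SE, adjusted p = 0.415.

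At the active zone Rims1 fell in 1 of its 2 probe sets. Probe set 1438305_at measured 9.47, 9.48 and 9.63 in ZnR mice, against 10.07, 10.18 and 10.10 in control mice. The diets did not overlap, and the difference was -0.59 ± 0.086 (SE; 1.505-fold lower in ZnR mice, limma adjusted p = 0.0292), with -0.60 in the low-18S pair and -0.58 among the rest. It did not pass with any mouse left out (limma adjusted p 0.0642 to 0.125, differences -0.64 to -0.56). Probe set 1435667_at measured 10.48, 10.58 and 10.71 in ZnR mice, against 11.09, 11.09 and 11.03 in control mice (-0.48 ± 0.089 SE, adjusted p = 0.0513). Of its paralogs, Rims3 measured 8.70, 8.55 and 8.60 in ZnR mice and 8.68, 8.73 and 9.0 in control mice (-0.19 ± 0.11 SE, adjusted p = 0.441), and the 3 tested Rims2 probe sets had differences of -0.16, -0.0066 and 0.19.

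The large active zone scaffolds had lower means and did not pass. Bassoon (Bsn) measured 8.69, 8.84 and 8.73 in ZnR mice, against 9.41, 9.13 and 9.10 in control mice (-0.46 ± 0.11 SE, adjusted p = 0.0893). Piccolo (Pclo) had differences of -0.37 to -0.10 over 3 probe sets (smallest adjusted p 0.1). Erc2, which links RIM to the scaffold, had a difference of -0.35 ± 0.091 SE, adjusted p = 0.113, and the liprin gene Ppfia3 one of -0.40 ± 0.085 SE, adjusted p = 0.0669. In Bsn, Erc2 and Ppfia3 every ZnR mouse was below every control mouse in each tested probe set. Ppfia2, a second liprin, had differences of -0.23 and -0.17 with overlapping mice. The liprin genes Ppfia1 and Ppfia4 are not members and had higher means in every tested probe set. Differences were 0.095 and 0.29 for Ppfia1 (smallest limma adjusted p 0.122). They were 0.20 to 0.39 for the 3 of Ppfia4, all without overlap (smallest adjusted p 0.109).

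The Munc13 priming factors had means on opposite sides of 0. Unc13a, the main one of forebrain synapses, measured 8.83, 8.96 and 9.002 in ZnR mice, against 8.93, 9.14 and 9.30 in control mice, with overlap (-0.19 ± 0.11 SE, adjusted p = 0.45). Unc13c, known from cerebellum, measured 10.22, 10.03 and 9.89 in ZnR mice, against 9.59, 9.43 and 9.51 in control mice. Every ZnR mouse was above every control mouse, with differences of 0.63 in the low-18S pair and 0.49 among the rest. The difference of 0.54 ± 0.11 (SE), 1.45-fold higher in ZnR mice, did not pass (adjusted p = 0.0595; 0.0364 with that pair as a block). Another Unc13c probe set measured 9.52, 9.48 and 9.16 in ZnR mice, against 8.79, 8.85 and 8.84 in control mice, also without overlap (0.56 ± 0.11 SE, adjusted p = 0.0619). The remaining one had a difference of 0.34 ± 0.40 (SE), where ZnR mouse 3 at 6.82 stood above the other mice at 5.05 to 5.72.

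**Figure D3:**
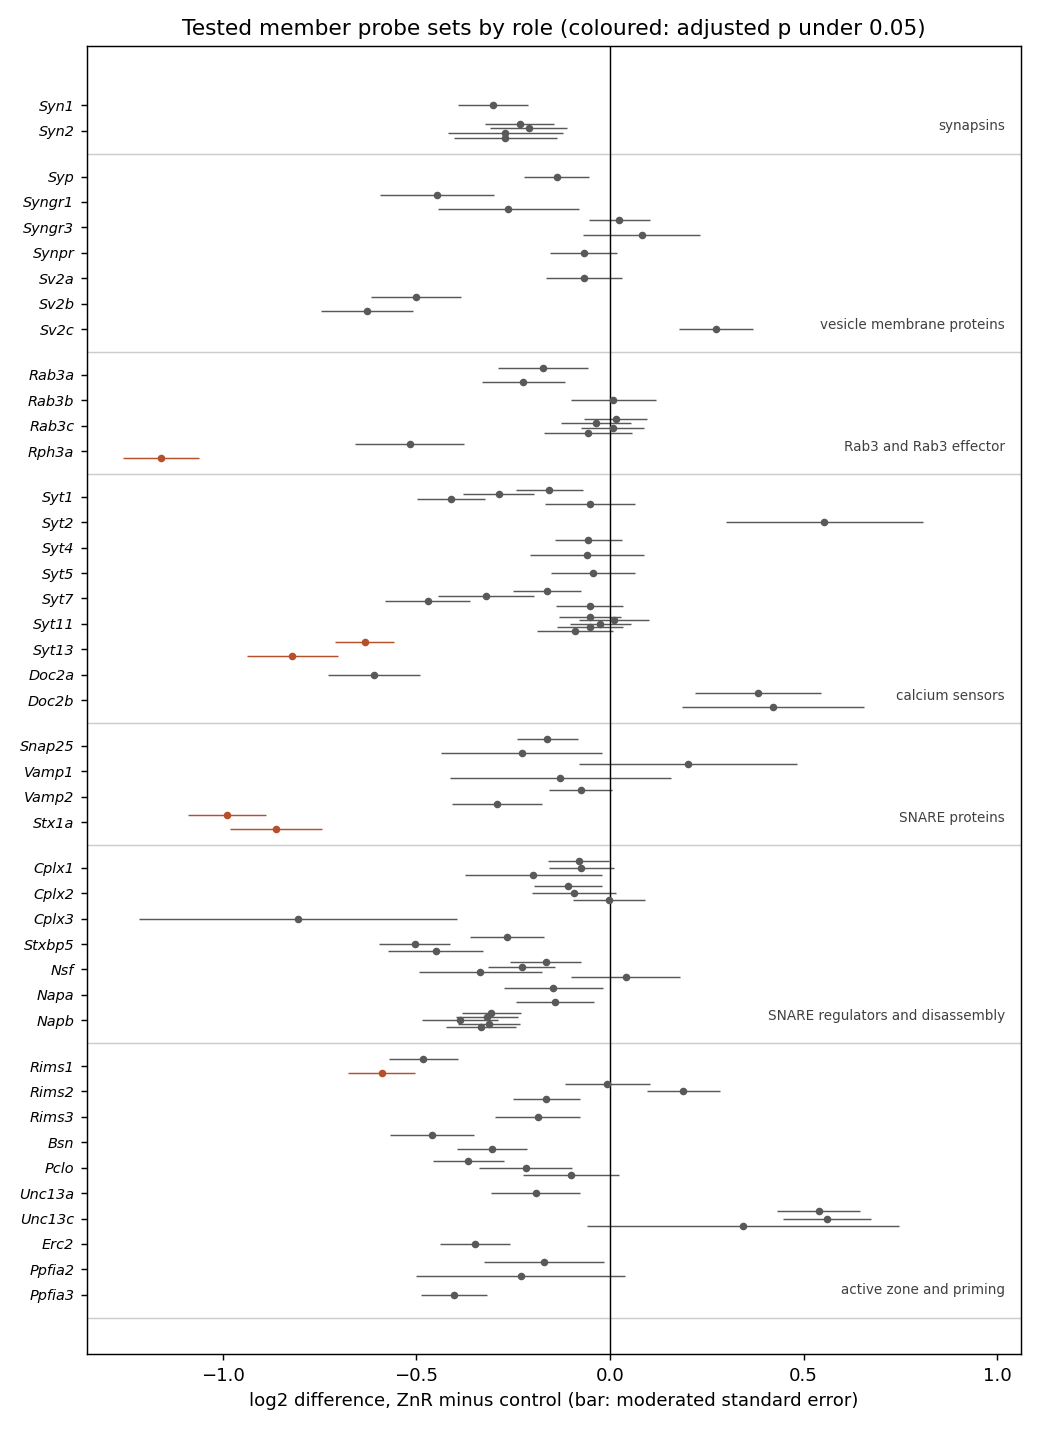
Log2 difference, ZnR minus control, with its moderated standard error for each of the 94 tested member probe sets, grouped by gene and role; coloured points have an adjusted p under 0.05. Most points lie left of 0, those of Rph3a, Stx1a, Syt13 and Rims1 include the coloured ones, and Unc13c, Doc2b, Syt2 and Sv2c lie to the right.

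Regulators and recyclers of the SNARE complex had lower means in 20 of 21 probe sets, with a median difference of -0.23. By limma 0 passed, and 9 (42.9%) were lower at an unadjusted p under 0.05, against 7.9% of all probe sets. Those 9 were all 5 tested probe sets of Napb, all 3 of Stxbp5 and 1 of Nsf. Probe sets of a gene are not independent, so the share rests on few genes. Stxbp5 (tomosyn, which competes with VAMP for syntaxin) measured 8.38, 8.60 and 8.61 in ZnR mice, against 9.05, 9.02 and 9.03 in control mice (-0.50 ± 0.092 SE, adjusted p = 0.0504), and all 3 Stxbp5 probe sets were without overlap. Napb, the neuronal SNAP adaptor, gave like values in all 5 of its probe sets, with differences of -0.39 to -0.31, adjusted p of 0.0991 to 0.119 and no overlap in any. The one with the smallest p measured 11.99, 11.996 and 11.96 in ZnR mice, against 12.30, 12.30 and 12.26 in control mice. Napa, its widely expressed relative, had differences of -0.14 and -0.15 with overlapping mice.

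Nsf, the ATPase that separates SNARE complexes, had differences of -0.34 to 0.041 over 4 probe sets. Complexins 1 and 2, the main forebrain forms, overlapped between diets in all 6 of their probe sets. Cplx1 measured 12.11, 12.02 and 12.09 in ZnR mice and 12.10, 12.17 and 12.18 in control mice (-0.081 ± 0.079 SE, 95% interval -0.27 to 0.10). Cplx2 measured 11.91, 12.03 and 11.98 in ZnR mice and 12.19, 12.04 and 12.02 in control mice (-0.11 ± 0.088 SE, 95% interval -0.31 to 0.098). Cplx3, a complexin of retina and of the deepest cortical layer, varied widely, at 4.94, 4.51 and 5.55 in ZnR mice and 6.41, 6.11 and 4.90 in control mice. Its difference of -0.81 ± 0.41 (SE; adjusted p = 0.372) was -1.26 without control mouse 9 and -0.50 without control mouse 1.

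Of the vesicle membrane proteins, 0 probe sets passed by limma, while 3 probe sets were lower and 1 higher at an unadjusted p under 0.05. That was 40% of the 10 tested, against 17.0% of all probe sets. SV2 proteins are transporter-like glycoproteins that support priming. Sv2b measured 11.97, 12.18 and 11.86 in ZnR mice, against 12.64, 12.51 and 12.37 in control mice (-0.50 ± 0.12 SE, adjusted p = 0.0843). Its other probe set measured 8.97, 9.003 and 9.06 in ZnR mice, against 9.87, 9.58 and 9.46 in control mice (-0.63 ± 0.12 SE, adjusted p = 0.0528), and neither overlapped. Sv2a measured 11.11, 11.23 and 11.14 in ZnR mice and 11.38, 11.12 and 11.18 in control mice, with overlap (-0.066 ± 0.098 SE, adjusted p = 0.785). Sv2c, best known from basal ganglia, measured 4.85, 4.75 and 5.01 in ZnR mice, against 4.55, 4.56 and 4.67 in control mice, with every ZnR mouse above every control mouse (0.27 ± 0.096 SE, adjusted p = 0.205). These values lie near the array medians of 4.45 to 4.52 and the filter at 4 log2 units, where values are compressed.

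Synaptophysin (Syp), an abundant vesicle protein, measured 12.49, 12.39 and 12.36 in ZnR mice, against 12.62, 12.49 and 12.54 in control mice, without overlap (-0.14 ± 0.084 SE, adjusted p = 0.465). Among its relatives, Syngr1 measured 10.52, 10.39 and 10.51 in ZnR mice, against 11.25, 10.79 and 10.71 in control mice, with control mouse 1 the highest (-0.45 ± 0.15 SE, adjusted p = 0.18). Syngr3 measured 10.66, 10.67 and 10.69 in ZnR mice and 10.63, 10.60 and 10.72 in control mice, with overlap (0.024 ± 0.079 SE, adjusted p = 0.917). Synpr had a difference of -0.068 ± 0.086 (SE). Synapsins cluster reserve vesicles, and the synapsin members Syn1 and Syn2 had lower means in 5 of 5 probe sets. By limma 0 passed, and 2 (40%) had an unadjusted p under 0.05, against 17.0% of all probe sets. Syn3, a synapsin gene that is not a member, had higher means in both of its tested probe sets (0.039 and 0.17) and did not pass (limma adjusted p 0.524 to 0.857). Syn1 measured 11.99, 11.87 and 11.96 in ZnR mice, against 12.35, 12.23 and 12.15 in control mice (-0.30 ± 0.090 SE, adjusted p = 0.149). The Syn2 probe set with the smallest p measured 11.97, 12.04 and 11.92 in ZnR mice, against 12.33, 12.14 and 12.17 in control mice (-0.23 ± 0.090 SE, adjusted p = 0.246), and the diets did not overlap in either.

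Within families, 14 pairs of genes were compared by the difference between their probe sets on each array, each gene by the probe set with its highest mean. In 6 pairs the diets did not overlap, and each had an exact permutation p of 0.1 (2-sided), the smallest that 3 against 3 mice can give (0.233 adjusted over the 14 pairs), so this test cannot pass 0.05. The SEs and 95% intervals below are from a pooled-variance t distribution, not the permutation test, and are not adjusted over the pairs. The ZnR minus control difference of Stx1a was further below 0 than that of Snap25, by -0.83 ± 0.12 (SE, 95% interval -1.17 to -0.49). Doc2a minus Doc2b came to -0.99 ± 0.20 (-1.55 to -0.44) and Unc13a minus Unc13c to -0.73 ± 0.20 (-1.29 to -0.17). Sv2a minus Sv2b was 0.43 ± 0.090 (0.19 to 0.68) and Sv2a minus Sv2c -0.34 ± 0.14 (-0.73 to 0.051). Syngr1 minus Syngr3 was -0.47 ± 0.19 (-0.996 to 0.055). The other 8 pairs overlapped. Among them, the interval was -0.28 to 0.14 for Syn1 minus Syn2, -0.25 to 0.31 for Cplx1 minus Cplx2 and -0.61 to 0.24 for Rab3a minus Rab3c, so differences of those sizes remain possible.

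Agreement between probe sets of a gene and between mice was as follows. Of the 29 genes with more than 1 tested probe set, 24 had all of them on one side of 0. The median SD between mice of a diet was 0.097 log2 units in ZnR mice and 0.10 in control mice, and the largest was 0.86, in an Unc13c probe set in ZnR mice. The 6 called probe sets had means over all mice of 7.60 to 10.63.

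**Figure D4:**
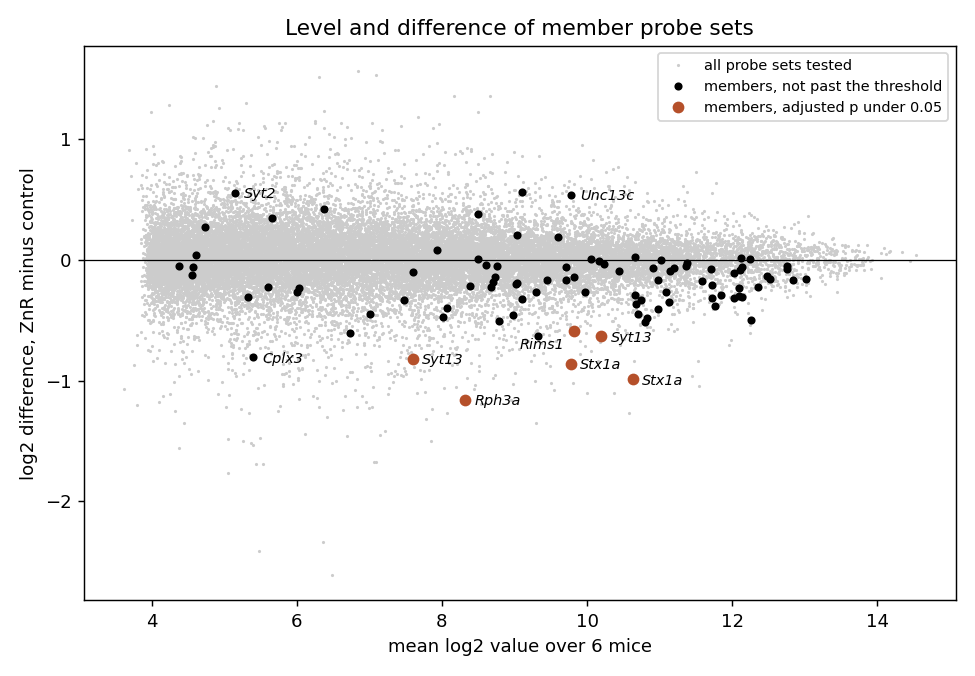
Mean log2 value over 6 mice and log2 difference, ZnR minus control, of each tested probe set, with members as large points and all 25381 tested probe sets in grey. The median difference is -0.17 for members and 0.015 for all, and the called members lie between 7.60 and 10.63 on the horizontal axis.

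Beyond the members, 96 other presynaptic genes, of which 87 had a tested probe set, were read in the same fit. Their 191 tested probe sets had a median difference of -0.096, and 5 genes with 6 probe sets (3.14%) fell, against 1.01% of all probe sets. Of those that rose, limma gave 0, against 0.461% of all probe sets. At an unadjusted p under 0.05 it gave 10 higher and 38 lower, 25.1% of the 191 in all. Of all probe sets, 17.0% had such a p, 9.06% higher and 7.9% lower. The zinc transporter of vesicles, Slc30a3, fell most (-1.17 ± 0.12 SE, adjusted p = 0.016), followed by the vesicular glutamate transporter Slc17a7 (-1.08 ± 0.12 SE, adjusted p = 0.0182), which is also one of the excitatory neuron markers. The priming genes Cadps2 (-0.84 ± 0.11 SE, adjusted p = 0.0214) and Unc13b (-0.69 ± 0.092 SE, adjusted p = 0.0238) fell too. The fifth was the calcium channel subunit gene Cacna2d1, in 2 probe sets (-0.58 ± 0.075 SE, adjusted p = 0.023 for one and -1.03 ± 0.19 SE, adjusted p = 0.0496 for the other). In 64 of the 191 (33.5%) every ZnR mouse was below every control mouse, against 10.6% of all probe sets. In 16 every ZnR mouse was above, against 13.1% of all. Those 16 included the calcium channel genes Cacna2d2 (0.75, adjusted p = 0.0981), Cacna2d3 (0.27) and Cacnb2 (0.21 and 0.25), and 3 of the 5 probe sets of the endocytosis gene Dnm3.

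The count of 5 genes also rested on single mice. It was 0 when ZnR mouse 3 was left out, 3 for ZnR mouse 7 and 0 for ZnR mouse 11. It was 2 for control mouse 1, 0 for control mouse 5, 2 for control mouse 9, and 0 for the low-18S pair. In the limma fits that gave 0, between 22 and 30 of the 87 genes had at least 1 probe set with an unadjusted p under 0.05. Of all probe sets, 12.9% to 14.3% had such a p. The former counts genes, which can have several probe sets, and the latter single probe sets, so they cannot be compared.

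Slc32a1, the vesicular GABA transporter and also an interneuron marker, stood at 11.1 ± 0.070 in ZnR mice and 10.6 ± 0.18 in control mice (SD, n = 3 each) and did not pass (limma adjusted p = 0.0607). Slc18a2, the vesicular monoamine transporter (0.89 ± 0.43 SE, adjusted p = 0.355), and both probe sets of the glutamate transporter Slc17a6 (0.25 ± 0.15 SE, adjusted p = 0.448 and 0.11 ± 0.12 SE, adjusted p = 0.707) had higher means with overlapping mice and did not pass. The vesicle transmitter transporters thus had lower means in 2 and higher means in 4 of 6 probe sets, with a median difference of 0.18. Subunits of the proton pump that acidifies vesicles had lower means in 23 of 23 probe sets, with a median difference of -0.12. In 11 of the 23 (47.8%) every ZnR mouse was below every control mouse, against 10.6% of all probe sets. By limma 0 of the 23 passed and 1 (4.35%) had an unadjusted p under 0.05, against 17.0% of all probe sets. That probe set was of Atp6v1e1 (-0.44 ± 0.086 SE, adjusted p = 0.0581). Genes of vesicle endocytosis had a median difference of -0.082 over 72 probe sets. Of these 0 passed by limma and 17 (23.6%) had an unadjusted p under 0.05, 13 lower and 4 higher, against 17.0% of all probe sets. The smallest p was that of the endophilin gene Sh3gl2 (-0.41 ± 0.089 SE, adjusted p = 0.0741). The median was -0.11 for the other release and vesicle genes and -0.080 for the presynaptic calcium channel genes.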

How the data were processed

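Per the labels' protocols, 500 ng of total RNA per mouse were turned into biotinylated targets by an Affymetrix 3′ expression kit. The authors deposited log2 values per probe set, with a column for each mouse; GCRMA 2.28.0 and R 2.15.1 stand in the submitters' processing notes. GCRMA evens out array distributions, so total RNA content is not measured, and low values are compressed. The log2 values were used as deposited.

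Members matched the platform annotation by symbol, and 0 of the 106 differed from the symbol of their Entrez identifier. Probe sets over 4 log2 units on at least 3 of 6 arrays were kept. Diets were compared with limma 3.58.1 in R 4.3.3 (lmFit, eBayes, 2-sided, no covariate; statmod 1.5.0 for the robust prior), Benjamini-Hochberg adjusted over all probe sets kept; the fit was tested on simulated data. A fold is 2 raised to the difference. Each array is a separate mouse, the number of arrays limits the precision, and the diets share no mouse number. Pairs were tested by exact permutation (scipy 1.17.1). The values of all mice are given for called probe sets, the 2 genes with the smallest p in each role, core genes and paired genes. The members, lists, pairs and this rule were chosen with earlier results of these data known. Python 3.11.15, pandas 2.3.3 and matplotlib 3.10.9 made tables and plots. Sequences are from RefSeq, GRCm38.p6.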

Additional observations from a re-analysis of the deposited data

How the results depend on the processing

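The alternatives changed the filter, the normalization, the variance prior, the array weights, the unit counted and the mice used. The member count of 6 was 10 with a filter at 5 log2 units, 25 with a robust variance prior with trend and 26 with array weights, all 6 remaining among them, and 0 without the low-18S pair. Of the calls, 2 with the robust prior and 2 with array weights were higher, and 1 with that pair as a block, all of Unc13c. With 1 probe set a gene, 7 member genes passed, 6 lower and Unc13c higher. The count over all probe sets also rose above that of the main fit, to 904 with the robust prior and 2003 with array weights. The larger member counts in these fits therefore cannot be read as specific to the members. Without the low-18S pair the count over all probe sets was 1. The count of other presynaptic genes was 12, 16 and 0 in the same fits. With the higher filter, that pair as a block or a single probe set a gene, more of all probe sets reached the unadjusted p used above than in the main fit. The share among members was larger than the share of all in each of these. Leaving out each mouse in turn gave 0 to 3 members, 1 to 109 of all probe sets, 0 to 3 other presynaptic genes and a member median of -0.21 to -0.15. That median was below 0 in every alternative run. Signs turned for some differences near 0, and for the larger one of Vamp1, which varied widely between control mice (SD 0.62). Rab3b was -0.0044 with array weights and -0.0035 after renewed quantile normalization. Sv2a was 0.016 with array weights and 0.035 without the low-18S pair, and Vamp1 -0.049 without that pair. With a mouse left out, values ran from -0.0012 to 0.059 for Syngr3, -0.15 to 0.45 for Vamp1, -0.083 to 0.088 for Rab3b, -0.12 to 0.0094 for Sv2a and -0.029 to 0.037 for Rab3c. They ran from -0.086 to 0.51 for Vamp1 minus Vamp2 and -0.054 to 0.081 for Cplx1 minus Cplx2, which was -0.050 with the mean of all probe sets of each gene. The cause was not tested. No paired analysis was possible because the diets share no mouse number and no label pairs the mice. The low-18S block is a term for a pair of arrays, not a pairing of the other mice.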
